A study of Mus musculus with 6 samples.

Results

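The genes described here are 10 genes of cholesterol export and of the liver X receptors (LXRs): Nr1h2, Nr1h3, Abca1, Abcg1, Pltp, Mylip, Soat1, Nceh1, Stard3 and Tspo. They were picked by name for their known roles, out of 46095 gene symbols in the count table, with earlier results of these data known. The rule itself uses no measured value. RNA-seq was run on BV2, an immortalized mouse microglia line, seeded in six-well plates. The CON group held 3 untreated control libraries, and the sTREM-1 group held 3 libraries of the same line incubated for 6 h with 1 μg/mL recombinant sTREM-1, the soluble form of the triggering receptor expressed on myeloid cells 1. No genetic difference between the groups was stated, and BV2 is 1 line grown outside the brain. The methods and the labels state different numbers of cultures per group. Whether the 3 libraries of a group came from separately grown cultures was not settled, and p-values measure only the spread between these libraries.

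LXRα (Nr1h3) and LXRβ (Nr1h2) are nuclear receptors that bind DNA together with a retinoid X receptor and are switched on by oxysterols and by desmosterol, a late intermediate of cholesterol synthesis. When sterol is plentiful, they induce the exporters ABCA1 and ABCG1 and the ubiquitin ligase MYLIP, which sends lipoprotein receptors to degradation. Excess cholesterol that stays in the cell is esterified by SOAT1 and stored in droplets, and NCEH1 hydrolyses the esters again, so that the sterol can leave. Microglia use these routes to handle the cholesterol they take up with myelin and cell debris.

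Values are CPM, the counts of a gene relative to the total of its library, scaled by edgeR's TMM factors, and differences are log2 fold changes of the sTREM-1 group over the CON group. Genes were tested with edgeR's quasi-likelihood test and counted as called where the p adjusted by the Benjamini-Hochberg method fell under 0.05 over the 14120 genes that passed the filter on low counts. The libraries held 40070633 to 45877107 counts, of which the 10 genes took 0.178%. Of all tested genes, 30.5% were called, 16.5% higher and 14.1% lower, and the groups did not overlap for 40.7%. The median absolute log2 fold change of all tested genes was 0.13, and 301 genes were called with at least a 1.5-fold change.

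Of the 10 genes, 9 were tested and Pltp was not. Compared with the CON group, 4 genes were called higher in the sTREM-1 group (Nr1h2, Abca1, Stard3 and Tspo), 1 was called lower (Nceh1), and 4 were not called (Nr1h3, Abcg1, Mylip and Soat1). In the 5 called genes, the values of both groups did not overlap. The called changes were small: none reached 1.5-fold, and by absolute log2 fold change they ranked from 3574 (Nceh1) to 5055 (Tspo) among the 14120 tested genes. The median log2 fold change of the 9 tested genes was 0.18, beside -0.0017 for all tested genes.

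**Figure D1:**
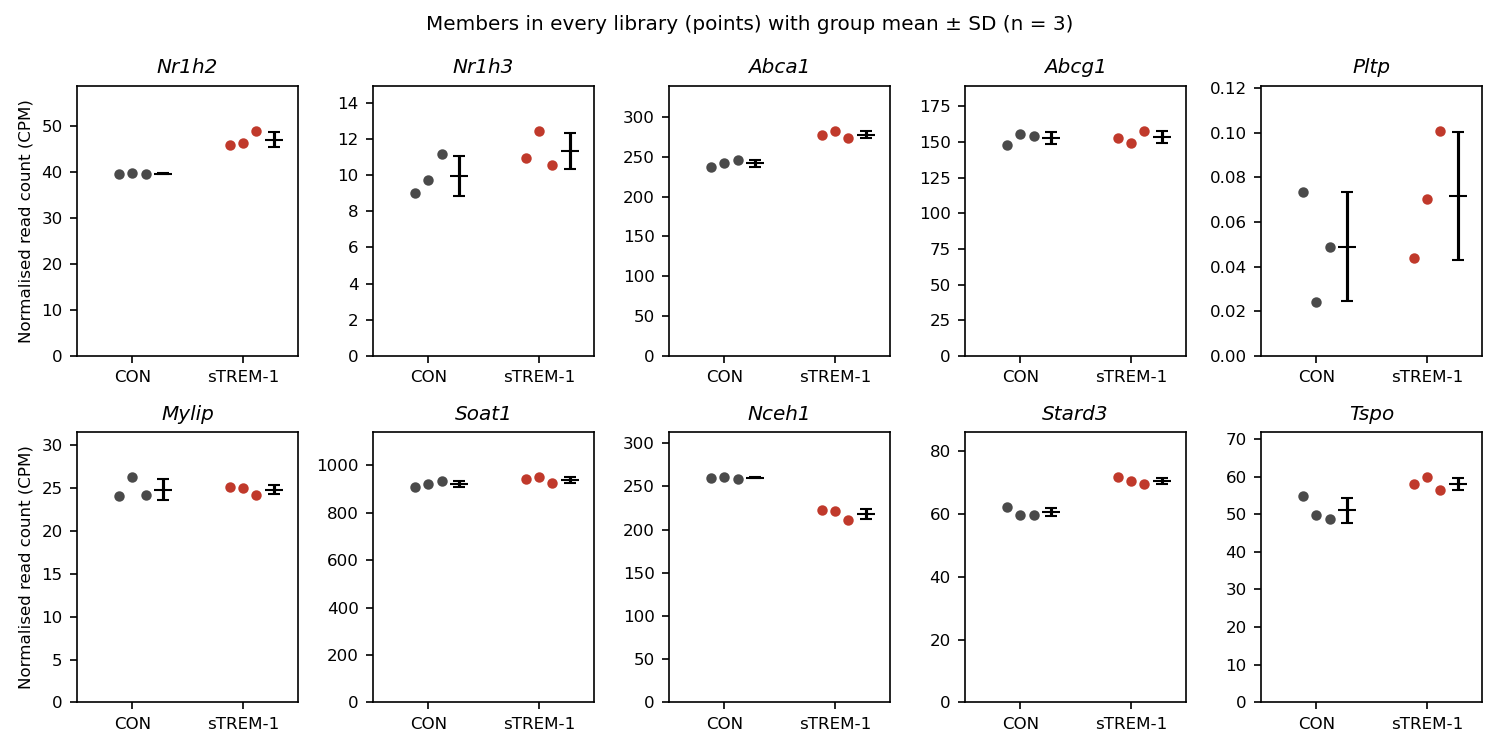
Level of each of the 10 genes in each library (y axis, TMM-scaled CPM, a separate scale for each gene) for the CON group (3 points) and the sTREM-1 group (3 points), with the group mean and SD. The sTREM-1 points lie above all CON points for Nr1h2, Abca1, Stard3 and Tspo and below them for Nceh1, and overlap the CON points for the other genes.

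Sequence from the promoters of 3 of the 4 genes that were higher is shown because these promoters differ in the short motifs they hold. RefSeq promoter windows on GRCm38.p6, 250 bases upstream and 50 downstream of a start site, were available for 8 of the 10 genes. Abcg1 and Tspo had no window, so their promoters were not searched. Capitals mark a match to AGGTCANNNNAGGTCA, the arrangement of half-sites that LXRs bind together with a retinoid X receptor (at most 3 mismatches over its 12 fixed bases and at most 2 in a half-site), or the motifs CACGTG and GGGCGG, all on both strands. The 250 bases upstream of the start, read 5′ to 3′ on the gene's strand, were chr4:53159896-53160145 (minus strand) for Abca1, chr11:98358118-98358367 (plus strand) for Stard3 and chr7:44553966-44554215 (minus strand) for Nr1h2.
Abca1: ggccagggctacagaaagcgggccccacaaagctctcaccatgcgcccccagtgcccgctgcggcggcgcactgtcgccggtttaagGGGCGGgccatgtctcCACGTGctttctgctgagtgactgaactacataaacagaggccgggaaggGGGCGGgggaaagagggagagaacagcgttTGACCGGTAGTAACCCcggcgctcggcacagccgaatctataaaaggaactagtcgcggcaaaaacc
Stard3: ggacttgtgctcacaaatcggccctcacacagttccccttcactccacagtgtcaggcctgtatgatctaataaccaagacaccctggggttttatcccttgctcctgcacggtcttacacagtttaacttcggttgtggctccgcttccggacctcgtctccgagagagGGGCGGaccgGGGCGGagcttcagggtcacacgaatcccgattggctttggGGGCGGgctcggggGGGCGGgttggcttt
Nr1h2: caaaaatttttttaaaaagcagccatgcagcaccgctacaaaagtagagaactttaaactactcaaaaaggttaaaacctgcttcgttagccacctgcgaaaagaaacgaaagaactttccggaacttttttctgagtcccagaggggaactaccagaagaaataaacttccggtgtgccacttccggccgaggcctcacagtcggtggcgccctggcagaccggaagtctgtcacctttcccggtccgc
The Abca1 promoter, from 67 to 52 bases upstream of the start, held the only match to the LXR arrangement among the 9 windows of these genes. Read on the strand opposite to the gene, the match was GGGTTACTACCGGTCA, with 3 mismatches. Such a match stood in 18.79% of all 32851 promoter windows. CACGTG stood from 147 to 142 bases upstream in Abca1 and from 26 to 21 bases upstream in Nceh1, and in 7.15% of all windows. GGGCGG, the core of the GC box, occurred 4 times in the printed Stard3 bases, 2 times in those of Abca1 and 0 times in those of Nr1h2. It also occurred 1 time each in the windows of Mylip, Soat1 and Pltp, which were not called or not tested. The windows of Nr1h3 and Nceh1 held it 0 times, and it stood in 35.66% of all windows. A match is a run of letters, and binding was not measured.

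Both LXR genes were expressed. Nr1h2 (chromosome 7, 44549616 to 44553951, minus strand, GRCm38) encodes LXRβ, the form found in most tissues. Its level was 39.6, 39.8 and 39.5 CPM in the 3 CON libraries and 45.8, 46.4 and 48.9 CPM in the 3 sTREM-1 libraries. Every sTREM-1 library lay above every CON library, and the CON libraries were almost equal. Nr1h2 rose from 39.6 ± 0.176 to 47.0 ± 1.65 CPM (mean ± SD of n = 3 libraries per group). Its log2 fold change was 0.25 ± 0.05 (SE, 1.19-fold, 95% interval 1.11 to 1.26, edgeR adjusted p = 7.9e-05). A processed copy, Nr1h2-ps, was listed at 0 counts in all 6 libraries.

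Nr1h3 (chromosome 2, 91184061 to 91202834, minus strand) encodes LXRα, the form prominent in liver and macrophages. It measured 9.01, 9.70 and 11.2 CPM in the CON group and 10.9, 12.4 and 10.6 CPM in the sTREM-1 group. The highest CON library lay above 2 of the 3 sTREM-1 libraries, so the groups overlapped. The log2 fold change was 0.18 with a standard error of 0.10 (1.14-fold, 95% interval 0.989 to 1.30, edgeR adjusted p = 0.168). The value depended on single libraries, with 0.12 without CON replicate 1, 0.11 without sTREM-1 replicate 2 and 0.27 without CON replicate 3, and the adjusted p over these 3 fits ran from 0.0587 to 0.512. This interval includes the fold change of Nr1h2, and the difference between both receptors was tested through their ratio. Nr1h3 counts per Nr1h2 count were 0.227, 0.244 and 0.283 in the CON group and 0.239, 0.268 and 0.216 in the sTREM-1 group, and these values overlapped. The log2 difference of the ratio was -0.06 (two-sided exact permutation test, p = 0.6, 0.6 adjusted over the 3 ratios compared). With 3 libraries in each group, such a test cannot give a p below 0.1.

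Among the export genes, Abca1 was higher and Abcg1 was not called. Abca1 (chromosome 4, 53030787 to 53159895, minus strand) encodes the transporter that loads cholesterol and phospholipid onto lipid-poor apolipoproteins. Its 3 CON libraries held 237, 242 and 246 CPM and its 3 sTREM-1 libraries 277, 282 and 274 CPM. The lowest sTREM-1 library stood well above the highest CON library, and the spread was alike in both groups. Abca1 rose from 242 ± 4.34 to 278 ± 4.22 CPM (mean ± SD of n = 3 libraries per group). The log2 fold change was 0.20 ± 0.03 (SE, 1.15-fold, 95% interval 1.11 to 1.19, edgeR adjusted p = 2.6e-07).

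Abcg1 (chromosome 17, 31057675 to 31117988, plus strand) encodes the half-transporter that passes cholesterol to mature high-density lipoprotein particles. Levels of 148, 156 and 154 CPM in the CON group stood beside 153, 149 and 158 CPM in the sTREM-1 group. The ranges of the groups overlapped over most of their length, and the means were 153 ± 4.25 and 153 ± 4.28 CPM (mean ± SD, n = 3 libraries per group). The log2 fold change was 0.01 with a standard error of 0.03 (95% interval of the fold change 0.962 to 1.05, edgeR adjusted p = 0.902). The upper bound for Abcg1 lay below the lower bound for Abca1. Abca1 counts per Abcg1 count were 1.60, 1.55 and 1.60 in the CON group and 1.81, 1.89 and 1.74 in the sTREM-1 group. All 3 sTREM-1 ratios exceeded the CON ratios, by 1.14-fold on average (two-sided exact permutation test, p = 0.1, the smallest this design allows, 0.15 adjusted over 3 ratios).

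Pltp (chromosome 2, 164839518 to 164857711, minus strand) encodes a secreted protein that moves phospholipid between lipoproteins. It was counted 3, 1 and 2 times in the CON libraries and 2, 3 and 4 times in the sTREM-1 libraries. In 5 of 6 libraries it was at or under 3 counts, the upper limit that a count of 0 allows. The summed counts of 6 and 9 gave a ratio of 1.44 (95% interval 0.457 to 4.91, counting error only), so no difference was detectable at this depth. Pltp overlaps Ctsa, a lysosomal protease gene on the opposite strand with 71812 to 85431 counts per library, and whether counting used the strand was not stated.

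Mylip (chromosome 13, 45389742 to 45412022, plus strand) encodes the ubiquitin ligase, also called IDOL, that marks lipoprotein receptors for degradation. It stood at 24.0, 26.2 and 24.2 CPM in the CON group and at 25.1, 25.0 and 24.2 CPM in the sTREM-1 group. The sTREM-1 values lay inside the CON range. The fold change was 0.999 (95% interval 0.918 to 1.09, edgeR adjusted p = 0.995). Among receptors that MYLIP marks, Lrp8 rose from 27.7 ± 1.77 to 35.2 ± 1.61 CPM (mean ± SD, n = 3 libraries per group, log2 fold change 0.35, edgeR adjusted p = 1.3e-05), and Vldlr was listed at 0 counts in all 6 libraries. These are transcript levels, and receptor protein was not measured.

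**Figure D2:**
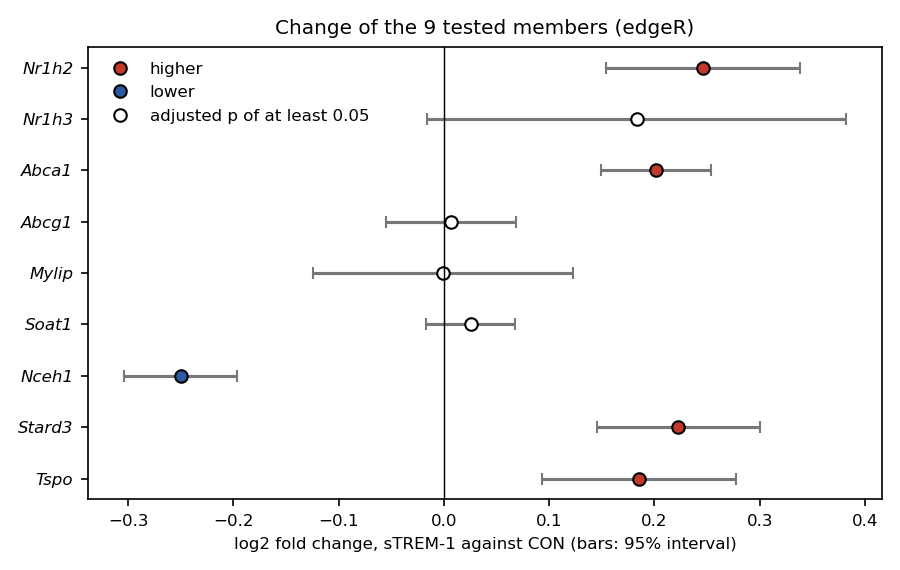
Log2 fold change of the sTREM-1 group over the CON group (x axis) for the 9 tested genes, with 95% intervals from edgeR. Nr1h2, Stard3, Abca1 and Tspo lie above 0 with log2 fold changes from 0.19 to 0.25, Nceh1 lies at -0.25, and the intervals of Nr1h3, Soat1, Abcg1 and Mylip include 0.

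Of the ester-forming and ester-cleaving enzymes, Soat1 was not called and Nceh1 was called lower. Soat1 (chromosome 1, 156424525 to 156474331, minus strand) encodes the enzyme of the endoplasmic reticulum that joins cholesterol to a fatty acid. It gave 909, 920 and 935 CPM in the CON libraries and 940, 948 and 924 CPM in the sTREM-1 libraries. sTREM-1 replicate 3 fell within the CON range. The log2 fold change was 0.03 with a standard error of 0.02 (1.02-fold, 95% interval 0.988 to 1.05, edgeR adjusted p = 0.396).

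Nceh1 (chromosome 3, 27182965 to 27284608, plus strand) encodes the neutral hydrolase that frees cholesterol from its esters and was the only one of the 9 tested genes called lower. Levels were 260, 260 and 259 CPM in the CON group and 223, 221 and 212 CPM in the sTREM-1 group. The CON libraries were nearly identical, and all 3 sTREM-1 libraries lay clearly below them. Nceh1 fell from 259.8 ± 0.666 to 218 ± 5.95 CPM (mean ± SD of n = 3 libraries per group). This was a log2 fold change of -0.25 ± 0.03 (SE, 0.841-fold, 95% interval 0.810 to 0.873, edgeR adjusted p = 8.4e-09). Soat1 counts per Nceh1 count were 3.49, 3.54 and 3.61 in the CON group and 4.22, 4.29 and 4.37 in the sTREM-1 group. The ratio was higher in all 3 sTREM-1 libraries, from a mean of 3.55 ± 0.0582 to 4.29 ± 0.0715, or 1.21-fold (two-sided exact permutation test, p = 0.1, the smallest this design allows, 0.15 adjusted over 3 ratios).

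Both sterol-binding proteins of organelle membranes were higher. Stard3 (chromosome 11, 98358368 to 98381112, plus strand) encodes a late endosomal protein that tethers to the endoplasmic reticulum and passes sterol between the membranes. Its level was 62.1, 59.8 and 59.9 CPM in the CON group and 71.7, 70.7 and 69.7 CPM in the sTREM-1 group, without overlap. Stard3 rose from 60.6 ± 1.32 to 70.7 ± 0.986 CPM (mean ± SD of n = 3 libraries per group). On the log2 scale the change was 0.22 ± 0.04 (SE, 1.17-fold, 95% interval 1.11 to 1.23, edgeR adjusted p = 3.0e-05). Its paralog Stard3nl, which makes the same tether but lacks the sterol-carrying domain, measured 31.4 and 30.1 CPM on average in the CON and sTREM-1 groups (log2 fold change -0.06, edgeR adjusted p = 0.445).

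Tspo (chromosome 15, 83563592 to 83574203, plus strand) encodes a cholesterol-binding protein of the outer mitochondrial membrane, whose ligands serve as imaging tracers of microglia. It measured 54.8, 49.7 and 48.7 CPM in the CON group and 57.9, 59.7 and 56.4 CPM in the sTREM-1 group. The groups did not overlap, though the highest CON library lay near the lowest sTREM-1 library. Tspo rose from 51.0 ± 3.28 to 58.0 ± 1.68 CPM (mean ± SD of n = 3 libraries per group). On the log2 scale it rose by 0.19 ± 0.05 (SE, 1.14-fold, 95% interval 1.07 to 1.21, edgeR adjusted p = 0.0020). Tspo overlaps Mcat on the opposite strand, which had 674 to 819 counts per library and a log2 fold change of -0.06 (edgeR adjusted p = 0.615), against 1987 to 2645 counts for Tspo.

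Levels of different genes were compared as CPM per kilobase of the longest coding transcript. On this scale the CON group ran from Soat1 (110) through Tspo (61.0), Nceh1 (58.0), Stard3 (29.3), Abcg1 (26.2), Abca1 (23.6), Nr1h2 (19.8), Mylip (8.09) and Nr1h3 (5.10) to Pltp (0.0220). No neighbours in this order had overlapping ranges over the 3 CON libraries, although Tspo and Nceh1 came close, at 58.1 for the lowest Tspo library and 58.1 for the highest Nceh1 library to 3 digits. In the sTREM-1 group, Abca1 (27.1) and Abcg1 (26.3) overlapped, while Tspo (69.3) and Nceh1 (48.8) stood apart. The order of the other genes was the same in both groups. Transcript use was not measured, so the order depends on the length chosen.

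**Figure D3:**
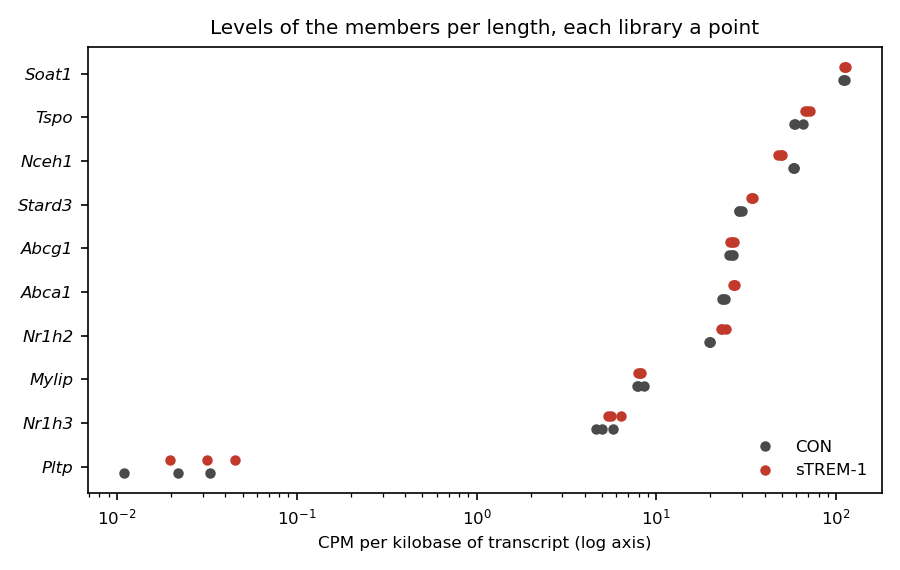
Level of the 10 genes as CPM per kilobase of transcript (log axis) in each of the 3 CON and 3 sTREM-1 libraries. Soat1 stands highest at 110 and 112 in the CON and sTREM-1 means, Nr1h3 at 5.10 and 5.78, and Pltp near 0.0220 and 0.0322.

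Genes that work with the LXRs showed changes in both directions. Of 12 partners and coregulators, 11 were tested, and 2 were called higher and 4 lower, or 54.5%, beside 30.5% of all tested genes. The median of the list was -0.10 on the log2 scale. The corepressor Ncor1 rose from 167 to 193 CPM (log2 fold change 0.21, edgeR adjusted p = 1.8e-06) and the acetyltransferase Ep300 by 0.08 on the log2 scale. The coactivators Ncoa2 and Ppargc1b and the cofactor Nrip1 fell by 0.13, 0.21 and 0.16 on the log2 scale. Rxra, a retinoid X receptor, was also called lower, from 97.6 to 91.2 CPM (edgeR adjusted p = 0.041), and was named after its values were seen. The 6 calls became 3 without CON replicate 2 or without sTREM-1 replicate 3, and 4 without CON replicate 3.

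Of 21 other LXR target genes, 14 were tested, and 8 were called higher and 1 lower, or 64.3%, beside 30.5% of all tested genes. The list median was 0.19 on the log2 scale. The genes called higher included the transcription factor Srebf1 (63.0 to 87.1 CPM, log2 fold change 0.47), the desaturase Scd2 (629 to 1124 CPM, 0.84) and the lipoprotein lipase Lpl (2610 to 3345 CPM, 0.36), with edgeR adjusted p-values of 7.1e-11, 2.1e-21 and 1.3e-13. Ttc39b, which promotes LXR breakdown, fell by 0.14 on the log2 scale. Srebf1 and Scd2 are also induced by sterol regulatory element-binding proteins (SREBPs). Of 17 targets of SREBP2, 16 were tested, and 15 were called higher and 0 lower, or 93.75%, beside 30.5% of all tested genes. The median of the SREBP2 list was 0.40 on the log2 scale. The sterol carrier gene Stard4 belongs to that list as well.

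Enzymes that make or break down LXR ligands were mostly at low counts, and 5 of 11 were tested. Of these, 3 were called higher and 0 lower, or 60%, beside 30.5% of all tested genes, with a list median of 0.21. The cholesterol synthesis enzymes Dhcr7 and Ebp and the oxysterol-metabolizing enzyme Hsd3b7 had log2 fold changes of 0.53, 0.32 and 0.21. Ch25h and Cyp7b1, which make and degrade 25-hydroxycholesterol, were listed at 0 counts in all 6 libraries. Sterols themselves were not measured.

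Among 33 genes of sterol transport and storage, 30 were tested, and 7 were called higher and 11 lower, or 60%, beside 30.5% of all tested genes. The list median was -0.06 on the log2 scale. Soat2, the second ester-forming enzyme, fell from 109 to 80.8 CPM (log2 fold change -0.43, edgeR adjusted p = 1.6e-11), where Soat1 was not called. The lysosomal ester hydrolase Lipa rose from 215 to 268 CPM (0.32 on the log2 scale, edgeR adjusted p = 4.1e-11), where the neutral hydrolase Nceh1 fell. The droplet coat gene Plin2 fell by 0.33 and the lysosomal exporter Npc1 by 0.16 on the log2 scale, and Stard4 and the lipoprotein receptor Scarb1 rose by 0.77 and 0.39.

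Of 14 other ABC transporter genes of classes A and G, 10 were tested, and 4 were called higher and 3 lower, or 70%, beside 30.5% of all tested genes. The list median of -0.01 had no stable sign, at -0.12 without sTREM-1 replicate 1 and 0.11 without sTREM-1 replicate 3. Abca9, Abca6 and Abca3 rose by 0.49, 0.30 and 0.18 on the log2 scale, while Abca5, Abcg2 and Abca8b fell by 0.40, 0.25 and 0.19. Of 10 TSPO partners, 9 were tested, 2 were called higher and 1 lower, or 33.3%, near the 30.5% of all tested genes. The list median was 0.04, and 0.013 to 0.073 when 1 library was left out. The mitochondrial channel Vdac1 and the nucleotide carrier Slc25a4 were called higher with log2 fold changes of 0.21 and 0.23, and Acbd3 fell by 0.11.

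**Figure D4:**
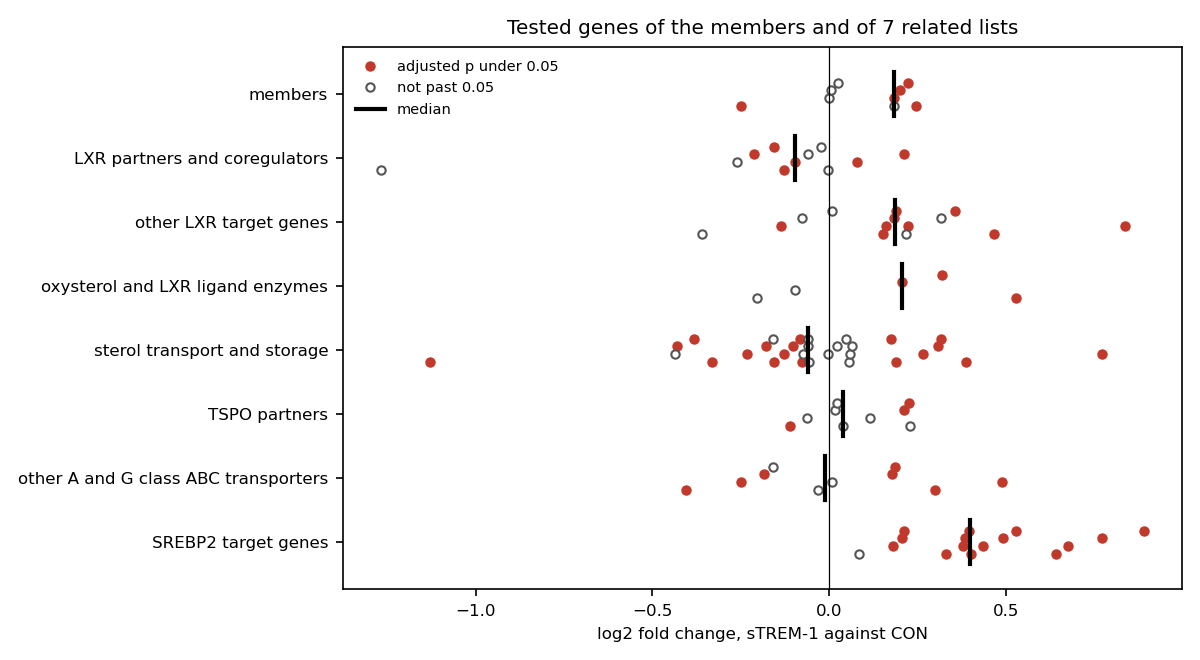
Log2 fold changes (x axis, sTREM-1 group over CON group) of the tested genes in 7 related lists, one point per gene (filled where called), with the list median as a bar and the genes of the main set in the row named members. The median lies at 0.40 for the SREBP2 targets, 0.19 for the other LXR targets, 0.18 for the 9 tested genes of the main set and -0.10 for the LXR partners.

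Some markers of the labelled cell type differed between the groups, and others did not. The summed level of 12 microglia and macrophage markers was 2935 to 2967 CPM in the CON libraries and 3243 to 3299 CPM in the sTREM-1 libraries. Of the 11 tested markers, 5 were called higher and 0 lower, beside 16.5% and 14.1% of all tested genes. Csf1r accounted for most of the higher sum, at 521 and 753 CPM on average in the CON and sTREM-1 groups. Cd68 (605 and 589 CPM) and Tyrobp (300 and 293 CPM) were slightly lower on average and not called. Aif1 was listed at 0 counts in all 6 libraries. Tmem119, P2ry12 and Cx3cr1, which mark resting microglia, were low, from 0.563 (P2ry12) to 2.18 CPM (Cx3cr1) over all 6 libraries. Of 5 markers each, astrocytes, fibroblasts and lymphocytes summed to at most 0.512 CPM in every library. The endothelial list summed to 203 to 221 CPM in the CON group and 251 to 257 CPM in the sTREM-1 group and was mostly Flt1, with Cldn5 listed at 0. The neuronal list summed to 30.9 to 31.4 CPM in the CON group and 26.4 to 27.3 CPM in the sTREM-1 group, without overlap, and was nearly all Syn1, the 1 neuronal marker tested and called lower, with Rbfox3 at 0. The oligodendrocyte list summed to 21.7 to 23.7 CPM and 23.5 to 26.3 CPM in the CON and sTREM-1 groups, with 1 of 2 tested markers called higher, and was mostly Cnp, with Mog at 0. The part of these differences in the results above was not tested. All 6 libraries came from the 1 line BV2, so these sums are marker transcript levels in that line and not counts of other cell types.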

How the data were processed

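RNA of 6 BV2 samples was sequenced, 3 per group, grouped as labelled. The methods state a different number of cultures per group from the labels, so what each library stands for was not settled. The deposited values were whole-number gene counts. The methods name RSEM for quantifying expression but do not say how these counts were made. The processing notes list HISAT2 2.0.4 and human builds, although the line and symbols are mouse, so the build used was not settled. Coordinates printed here come from GRCm38 annotation (GENCODE M21, RefSeq GRCm38.p6) and were matched by symbol.

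Genes were kept by edgeR's filterByExpr (minimum count 10). After TMM scaling, groups were compared by its quasi-likelihood test (edgeR 4.0.16, limma 3.58.1, R 4.3.3), without a covariate, at an adjusted p of 0.05. DESeq2 1.42.0, other scalings and filters, a replicate block, a GC content and length correction and leaving out each library were alternatives. Ratios used exact permutation tests. The text names all 10 genes and, from each list, at most 3 called genes per direction with the smallest p, plus receptors that MYLIP marks. Some genes that this rule covers are not reported here. The genes and lists were chosen with earlier results of these data known. Total counts of 40070633 to 45877107 per library set the precision, with a biological coefficient of variation of 3.99%. Intervals and floors cover counting error only where said.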

Additional observations from a re-analysis of the deposited data

How the results depend on the processing

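Over 13 other fits, the 5 called genes (Nr1h2, Abca1, Stard3, Tspo and Nceh1) were called in the same direction in each, and Nr1h3, Abcg1, Mylip and Soat1 in none. The highest adjusted p among the called genes was 0.0251, for Tspo. Abcg1 was above 0 in 9 of 13 fits and Mylip in 3. The replicate block called 4613 genes and changed no call among the 9 tested genes. The correlations of deviations of same-numbered libraries, over all tested genes, were -0.0178, -0.0335 and -0.0137. Counting noise in low genes can hold such values small, so whether the numbers paired the libraries was not settled. DESeq2 called 3952 genes.

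With at least 1.5-fold also required, 0 of the 10 genes were called higher and 0 lower, and 301 genes in all, with 0 LXR partners, 1 other LXR target, 0 ligand enzymes, 2 transport and storage genes, 0 TSPO partners, 0 other ABC transporters and 4 SREBP2 targets. At an adjusted p of 0.01, 3 LXR partners were called. Leaving out 1 library gave 3 to 6 LXR partners, and -0.14 to 0.027 for the log2 difference of the Nr1h3 to Nr1h2 ratio, which turned above 0 without CON replicate 3 (0.027) and without sTREM-1 replicate 3 (0.015). The median of the ligand enzyme list was -0.06 with no filter on low counts, which adds genes near 0 counts. At 1 to 4 counts per library, depth limits Pltp.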
